A study of Mus musculus with 22 samples.

Results

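The genes described here are 7 enzymes of deoxynucleotide supply, Rrm1, Rrm2, Rrm2b, Tyms, Dut, Tk1 and Dctpp1, chosen by name from the 14407 genes of a single-cell RNA count matrix of mouse germinal center B cells. All 7 were in the matrix. The cells came from spleens of male C57BL/6 mice, labelled 8 weeks old, immunized at 6 to 8 weeks into the peritoneum with 100 µg of antigen in 50% alum with 1 µg of LPS. There were 2 libraries from mice given NP(23)-KLH, in which cells were sorted on day 13 as live (7AAD-) B220+ Fas-high GL-7-high cells that also bound NP (NP 1 and NP 2). A further library came from mice given OVA, sorted by the same surface gate without an antigen-binding step (OVA 1). Its sort day is not given in the sources used here. How many mice went into each library is not given either, and the p-values then speak only of the spread among 3 libraries, which may be technical. Heavy-chain sequences of the same cells gave clones and isotypes. Another 16 bulk receptor libraries were not used.

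A cell that copies its genome needs the 4 deoxynucleotides in balanced amounts. Ribonucleotide reductase makes them from ribonucleotides. Its large subunit is RRM1, and its small subunit is either RRM2, which cycling cells make in S phase and destroy in mitosis, or RRM2B, a p53-induced form that serves resting cells, DNA repair and mitochondrial DNA. Thymidylate synthase (Tyms) and cytosolic thymidine kinase (Tk1) supply the thymidine nucleotide by synthesis and by salvage. The dUTPase Dut and the pyrophosphatase Dctpp1 remove dUTP and dCTP or its modified forms from the pool. Germinal center B cells divide rapidly in the dark zone and carry uracil in their immunoglobulin genes as they mutate them, so both the supply of deoxynucleotides and the control of dUTP matter in these cells.

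The 3 libraries held 3765, 2104 and 3004 cells in the order NP 1, NP 2 and OVA 1. Kept cells had 500 or more genes detected and no more than 10% of their UMIs from mitochondrial genes, which left 2600, 1756 and 2385 cells with a median of 5892 to 8049.5 UMIs (unique molecule counts). Between 9 and 11 barcodes were shared by any pair of libraries. All 12 germinal center B cell markers examined were present in every library. Markers of neutrophils and macrophages differed between libraries: they summed to 0.295, 7.84 and 15.9 UMIs per 10000 in NP 1, NP 2 and OVA 1, with Camp, Lcn2, Ltf, Ngp, S100a8 and S100a9 at 0 in NP 1. T cell markers stood at 1.08 to 1.17 UMIs per 10000, with Cd4 at 0 in NP 2. Most of this was Lck, at 1.075, 0.872 and 0.817, found in 41.0%, 42.0% and 37.1% of cells. Cd3e stood at 0.0135, 0.0533 and 0.0892, in 0.154%, 0.740% and 1.13% of cells, so the sum does not measure T cells. Where depth could set a result, each cell was thinned to 2500 UMIs, which kept 2338, 1602 and 2154 cells.

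Cells were placed in 6 bins by which of 4 cycle genes had a UMI in the thinned cell: Mcm5 (a replication helicase subunit), Top2a (topoisomerase of S and G2 phase), Ccnb1 (cyclin B1, of G2) and Cdc20 (an activator of the mitotic ubiquitin ligase). Cells with Cdc20 formed 1 bin whatever else they had, those with Ccnb1 but no Cdc20 another, and the rest were split by Mcm5 and Top2a. None of the 4 was detected in 42.5%, 45.9% and 52.6% of the cells of NP 1, NP 2 and OVA 1. That bin is called the no-marker bin, since at this depth a missing UMI does not show that a cell was not cycling. Levels are UMIs per 10000 UMIs outside immunoglobulin genes, and their intervals cover counting error only. In all 5 bins with a marker 6 of the 7 genes were higher than in the no-marker bin, and Rrm2b passed in the Cdc20 bin alone.

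Rrm2, the S-phase small subunit (chr12:24708254-24714146 in RefSeq GRCm38.p6, the assembly of all positions given here), had the widest range of the 7. Its level in the no-marker bin was 0.208 in NP 1, 0.121 in NP 2 and 0.193 in OVA 1, from 51, 22 and 54 UMIs, and in cells with Mcm5 and Top2a it was 4.66, 4.72 and 4.47. The ranges of the bins lay far apart, and the libraries within a bin lay close together. The difference was 24.2-fold, or 4.60 on the log2 scale (SE 0.139, adjusted p = 1.2e-42, edgeR's quasi-likelihood test with the library as a block and Benjamini-Hochberg adjustment). It was smaller in cells with Mcm5 alone, at a log2 difference of 2.74 (SE 0.179), and in cells with Cdc20, at 2.98 (SE 0.184). Rrm2 UMIs were found in 51.5% to 62.5% of the cells with Mcm5 and Top2a and in 2.45% to 3.83% of the no-marker cells.

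**Figure D1:**
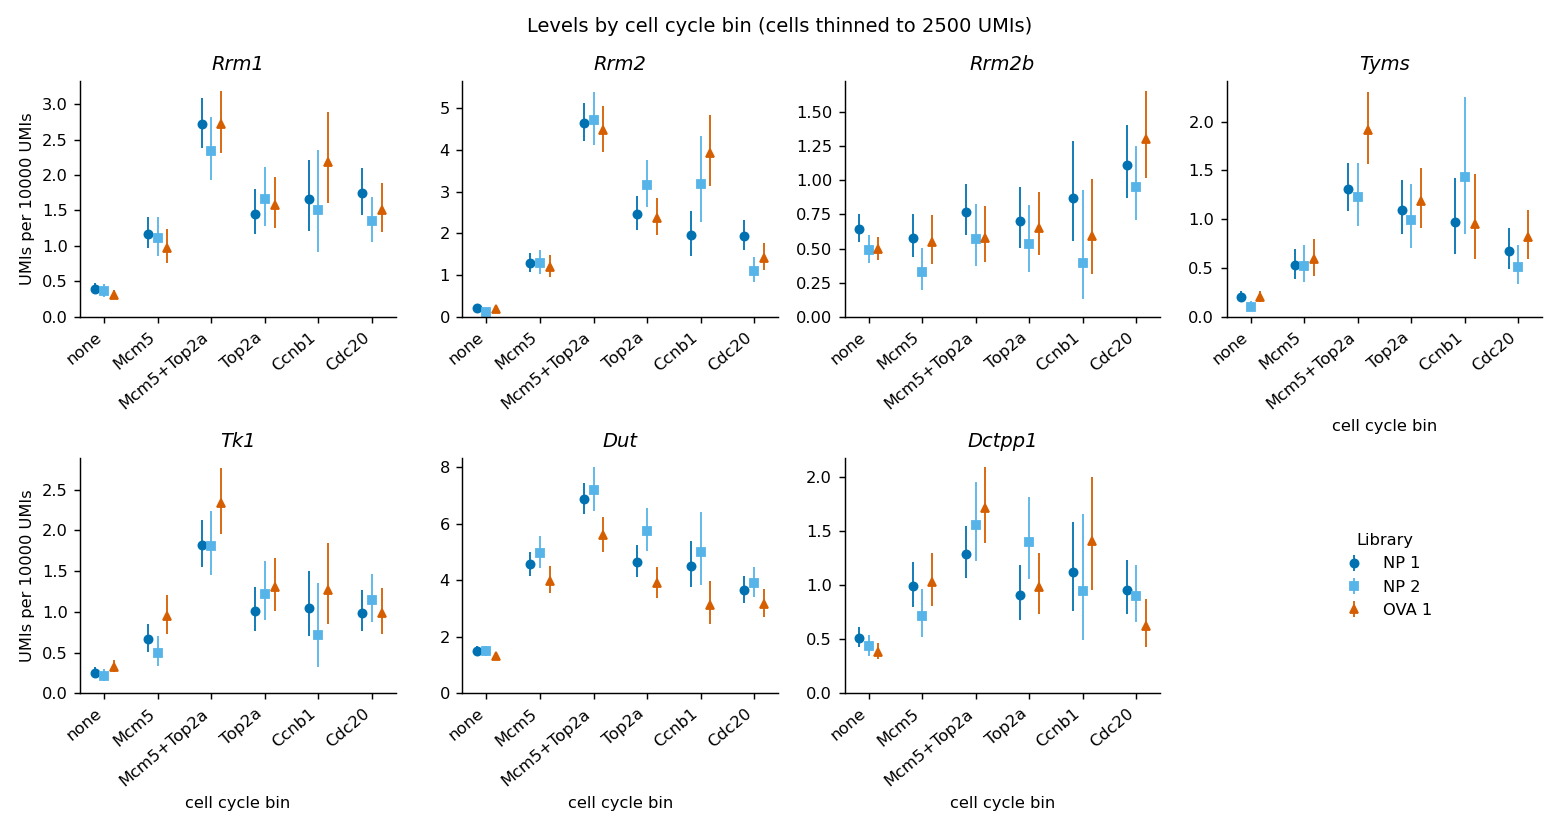
Level of each of the 7 genes (vertical axis, UMIs per 10000 non-immunoglobulin UMIs of cells thinned to 2500 UMIs) in 6 cell cycle bins (horizontal axis) for NP 1, NP 2 and OVA 1; bars are exact 95% Poisson intervals. Rrm1, Rrm2, Tyms, Tk1, Dut and Dctpp1 are lowest in the no-marker bin and highest with Mcm5 and Top2a in every library, except Tyms in NP 2, which is highest in the Ccnb1 bin, whereas Rrm2b is highest in the Cdc20 bin in all 3 libraries.

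Rrm1, the large subunit (chr7:102441695-102469771), had a narrower range than its partner. It stood at 0.396, 0.358 and 0.308 in the no-marker bin of NP 1, NP 2 and OVA 1 and at 2.72, 2.34 and 2.72 in cells with Mcm5 and Top2a. It was higher in all 3 libraries, with no overlap, by 2.81 on the log2 scale (SE 0.116). In cells with Cdc20 it still stood at 1.75, 1.35 and 1.51, a log2 difference of 2.05 (SE 0.136).

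Both sources of thymidine nucleotide rose in the same bins. Tyms (chr5:30038546-30073645) rose from 0.200, 0.105 and 0.201 in the no-marker bin to 1.31, 1.22 and 1.91 with Mcm5 and Top2a, a log2 difference of 3.01 (SE 0.159). Tk1, the salvage kinase (chr11:117815519-117826087), rose from 0.249, 0.215 and 0.330 to 1.82, 1.81 and 2.33, a log2 difference of 2.81 (SE 0.134). OVA 1 was the highest library for both genes in the Mcm5 and Top2a bin. RefSeq places Afmid across the Tk1 locus, and whether strand was used in counting is not given in the sources used here, so reads of Tk1 and Afmid may not be told apart.

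The pool-cleaning enzymes rose in the same bins. Dut (chr2:125247248-125259049), which hydrolyses dUTP, stood at 1.50, 1.49 and 1.32 in the no-marker bin and 6.89, 7.19 and 5.59 with Mcm5 and Top2a, a log2 difference of 2.11 (SE 0.0764). Dctpp1 (chr7:127256959-127260667) stood at 0.514, 0.435 and 0.387 against 1.29, 1.56 and 1.72, a log2 difference of 1.67 (SE 0.141). For both genes every library's level with Mcm5 and Top2a lay above every no-marker level. The log2 differences of Dut and Dctpp1 were smaller than those of the other 4 genes that rose, a comparison between genes that was not tested.

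In counts, 6 of the 7 genes were higher in the Mcm5 bin, where 11.0% of 7155 genes tested were called higher. The same number was higher with Mcm5 and Top2a (17.6% of genes called higher), in the Top2a bin (9.32%) and in the Ccnb1 bin (9.88%). All 7 were higher in the Cdc20 bin, against 17.3% of genes. Median log2 differences of the 7 were 1.57, 2.81, 2.05, 1.90 and 1.86 in these bins, beside −0.03, −0.07, −0.05, −0.04 and −0.02 over all genes tested. Other cell types moved with the bins: the summed myeloid markers of the no-marker bin were 0.824, 15.6 and 19.7 per 10000 and those of the Mcm5 bin 0.0106, 1.21 and 0.273. They were at most 0.473 in the bins with Mcm5 and Top2a or Top2a alone, but 0, 0.873 and 52.97 in the Ccnb1 bin, where Camp (1.15) and Ltf (1.16) were called higher and Lyz2 (−1.37) lower. Memory and naive B cell markers summed to 4.52, 4.95 and 7.35 in the no-marker bin and 1.84, 1.46 and 3.02 with Mcm5 and Top2a. When cells with myeloid or T cell transcripts were left out, the 6 genes were still called in every bin. That set was chosen in part by Lck, so it may hold many B cells. The share of memory-like cells in these differences was not tested.

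RefSeq promoter windows (GRCm38.p6) matched 6 of the 7 genes, all of which rose in the same bins; Rrm2b had none. An E2F core was found in 2 of the 6 windows (Rrm1 and Rrm2) and CCAAT in 3 (Rrm1, Rrm2 and Dctpp1), and Tyms, Dut and Tk1 held neither. The 3 windows with a match are shown, since they carry the letters described; those of Tyms, Dut and Tk1 also overlap the annotated gene. The 250 bases before the start site are printed 5′ to 3′ on the gene's strand, with matches to the E2F core or to CCAAT in capitals, for chr7:102441445-102441694 (plus strand), chr12:24708004-24708253 (plus strand) and chr7:127260668-127260917 (minus strand), which lie outside any annotated gene.
Rrm1: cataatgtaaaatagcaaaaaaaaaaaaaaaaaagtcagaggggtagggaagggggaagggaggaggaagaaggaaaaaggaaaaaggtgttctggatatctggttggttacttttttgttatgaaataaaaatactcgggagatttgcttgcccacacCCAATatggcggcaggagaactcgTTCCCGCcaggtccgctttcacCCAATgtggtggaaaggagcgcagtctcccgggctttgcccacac
Rrm2: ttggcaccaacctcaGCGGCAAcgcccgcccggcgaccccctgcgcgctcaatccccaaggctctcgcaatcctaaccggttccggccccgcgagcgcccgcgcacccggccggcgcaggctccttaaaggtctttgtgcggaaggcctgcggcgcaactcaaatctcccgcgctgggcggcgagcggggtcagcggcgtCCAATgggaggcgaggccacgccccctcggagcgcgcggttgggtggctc
Dctpp1: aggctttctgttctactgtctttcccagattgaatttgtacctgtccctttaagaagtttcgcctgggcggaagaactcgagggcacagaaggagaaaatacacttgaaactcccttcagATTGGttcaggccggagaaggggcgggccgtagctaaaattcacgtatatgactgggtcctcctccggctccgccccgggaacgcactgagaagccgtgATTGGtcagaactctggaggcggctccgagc
The E2F core was searched on both strands as TTCCCGC and, with other bases in the middle, as TTGGCGC or alternatively as TTCGCGC or in the last form as TTGCCGC. Rrm1 held TTCCCGC at −67 to −61 from its start, and Rrm2 held TTGCCGC on the reverse strand at −235 to −229. CCAAT lay at −91 to −87 and −45 to −41 in Rrm1, at −50 to −46 in Rrm2, and on the reverse strand at −130 to −126 and −31 to −27 in Dctpp1. Among 32536 RefSeq windows, 7.94% held an E2F core and 33.8% a CCAAT on either strand. The letters TTTGAA, held by 15.8% of windows, were found in none of the 6. A match to these letters is a description and does not show a bound site.

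Rrm2b, the alternative small subunit (chr15:37923952-37961119), did not pass in the bins of S phase. In the no-marker bin it stood at 0.644, 0.490 and 0.494 in NP 1, NP 2 and OVA 1, and in cells with Mcm5 and Top2a at 0.770, 0.569 and 0.578. The log2 difference was 0.18 (SE 0.155, adjusted p = 0.389, edgeR's quasi-likelihood test with Benjamini-Hochberg adjustment). Its values with Mcm5 alone were 0.580, 0.327 and 0.546, a log2 difference of −0.20 (SE 0.159, adjusted p = 0.426). Neither difference passed, and the intervals of the libraries overlapped. Its locus overlaps the pseudogene Gm3362 in RefSeq, so its reads may be shared.

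The bin in which Rrm2b did rise was that of mitosis. In cells with Cdc20 its level was 1.12, 0.955 and 1.31, above each of the 3 no-marker values. It was 1.96-fold higher than in the no-marker bin, or 0.97 on the log2 scale (SE 0.140, adjusted p = 2.35e-08, edgeR's quasi-likelihood test with Benjamini-Hochberg adjustment). The libraries gave 0.79, 0.95 and 1.39, and each of 17 alternative settings gave a call, from 0.64 to 1.12. Summed myeloid markers in the Cdc20 bin were 0, 0 and 24.6 per 10000, with 7 of 9 genes seen in OVA 1. With cells of other types left out, a set chosen in part by Lck, the log2 difference was 0.88. In the same bin Rrm2 stood at 1.93, 1.11 and 1.42, below its level with Mcm5 and Top2a in every library, a difference that was not tested by itself.

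The ratio of Rrm2 to Rrm2b UMIs in the same sums puts the contrast in 1 value. Because gene length and capture differ, only its change between bins can be read. The log2 ratio in the no-marker bin was −1.63, −2.02 and −1.35, and with Mcm5 and Top2a it was 2.60, 3.05 and 2.95. All libraries moved the same way, by a mean of 4.53 ± 0.466 (SD, n = 3; exact sign-flip permutation test, two-sided, p = 0.25, the smallest that 3 libraries allow). In cells with Cdc20 the log2 ratio was 0.79, 0.21 and 0.12. The Ccnb1 bin spread most, at 1.17, 3.0 and 2.73, with only 5 Rrm2b UMIs in 51 cells of NP 2.

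**Figure D2:**
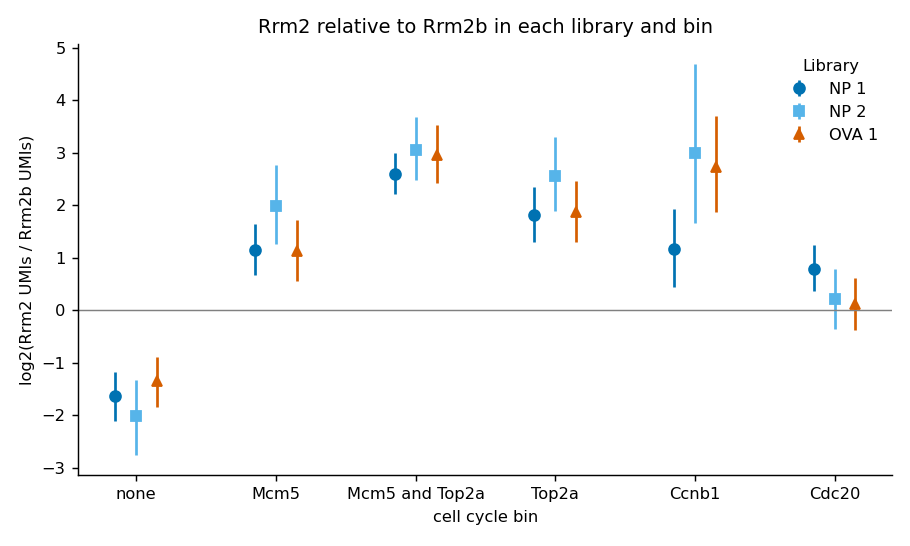
Log2 of Rrm2 UMIs over Rrm2b UMIs (vertical axis) in 6 cell cycle bins (horizontal axis) for NP 1, NP 2 and OVA 1, in cells thinned to 2500 UMIs; bars are 95% intervals from the exact binomial interval of Rrm2 among both genes' UMIs. All 3 libraries lie below 0 in the no-marker bin, between 2.60 and 3.05 with Mcm5 and Top2a, and between 0.12 and 0.79 with Cdc20.

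Across the 18 library and bin sums, centred within each library, Rrm2 and Rrm2b had a Pearson correlation of 0.121. The other 6 genes correlated with one another at 0.855 to 0.972, and Rrm2b with each of them at 0.0528 to 0.338. Among 8327 genes the closest to Rrm2 were Asf1b (0.976, a histone chaperone), Nelfe (0.974, of the elongation-pausing complex NELF), Rrm1 (0.972), Pclaf (0.969, a PCNA partner) and Gmnn (0.969, geminin, the inhibitor of origin licensing). Closest to Rrm2b were Cdc25c (0.911, the phosphatase that opens mitosis), Brd8 (0.910), Vpreb3 (0.886), Ccdc61 (0.882) and Nup37 (0.877, a nuclear pore subunit). These sums share libraries and bins and are given as a description.

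Detection in the same thinned cells was compared as a description. Rrm1 was detected in 45.0%, 44.9% and 50.2% of cells with an Rrm2 UMI, against 15.2%, 12.7% and 12.4% of cells without one. Tk1 was detected in 34.7%, 38.2% and 46.0% against 10.2%, 8.61% and 10.0%. Rrm2b was detected in 16.5%, 10.6% and 9.79% of cells with Rrm2 and 16.3%, 13.0% and 14.0% of cells without. The values for Rrm2b were close in NP 1 and lower beside Rrm2 in NP 2 and OVA 1, unlike those of Rrm1 and Tk1, which were higher beside Rrm2 in all 3 libraries. Cells with myeloid or T cell transcripts (454, 344 and 396) gave no background for free RNA. They were chosen in part by Lck, which 41.0%, 42.0% and 37.1% of kept cells held, so many may be B cells. Their Rrm2 level over all UMIs was 2.67, 2.15 and 2.44 per 10000 against 1.91, 1.90 and 1.71 in the rest. No class known to lack these genes was set apart, and the part of free RNA was not tested.

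Other genes of the pathway were counted from lists in the same fit. With Mcm5 and Top2a 36.0% of genes were called there in either direction, and 17.6% were called higher. All 6 tested genes of the folate cycle that feeds thymidylate synthase were higher, among them Shmt1 at 2.13, Mthfd1 at 1.14 and Mthfd1l at 0.90 on the log2 scale. De novo synthesis of ribonucleotides was higher for 3 of 5 pyrimidine genes (Ctps 1.65, Umps 1.17, Cad 1.12) and 8 of 11 purine genes (Pfas 1.30, Ppat 1.18, Paics 1.05, Gart 0.77). Cad was higher in NP 1 (1.50) and OVA 1 (1.61) but lower in NP 2 (−0.95). Of 21 kinases, phosphatases and salvage genes, 10 were higher and 4 lower. The nucleoside transporter Slc29a1 (1.83) and thymidylate kinase Dtymk (1.44) led the first, and the mitochondrial thymidine kinase Tk2 (−1.58) the second.

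Samhd1, the triphosphohydrolase that breaks deoxynucleotides down, was lower with Mcm5 and Top2a by a log2 difference of −0.47 (adjusted p = 2.53e-06, edgeR's quasi-likelihood test with Benjamini-Hochberg adjustment). It was singled out after its value was seen. Of 13 E2F and RB regulators 10 were higher, where 17.6% of all genes were. Among them were Ccnf at 4.09, E2f7 at 4.02, E2f8 at 3.89 and Ccne2 at 3.75. Ccnf encodes cyclin F, which targets RRM2 protein for destruction, and E2f7 and E2f8 are repressors of late S phase. Of 13 p53 pathway genes, where Rrm2b belongs as a known target, 1 was higher (Ddb2 0.71) and 5 were lower, including Btg2 at −1.20, Bbc3 at −1.04 and Sesn1 at −0.93. Of genes that repair uracil in DNA, Ung, the uracil glycosylase, was higher by 2.33 on the log2 scale.

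In the Cdc20 bin the same lists were called less fully, with 34.7% of genes called in either direction and 17.3% called higher. There 4 of 6 folate genes, 2 of 5 pyrimidine and 5 of 11 purine genes were higher. Deoxycytidine kinase Dck stood at 1.25 in this bin and 0.60 with Mcm5 and Top2a, both called against the no-marker bin. Among 13 p53 pathway genes Pmaip1 (0.85) and Ddb2 (0.63) were higher and Sesn1 (−0.85) and Btg2 (−0.61) lower, in the bin where Rrm2b rose. The difference between the bins' counts was not tested.

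Cells with an Rrm2b UMI but no Rrm2 UMI (300, 169 and 255 in NP 1, NP 2 and OVA 1) were next set against cells with Rrm2 but no Rrm2b (414, 269 and 304). These groups are ranges of detection, not cell types. Rrm2 cells must hold Rrm2 and Rrm2b cells must lack it, so genes that vary with Rrm2 differ through that choice. The differences below therefore do not bear on Rrm2b alone. Rrm1 was detected in 18.3%, 14.8% and 13.7% of Rrm2b cells, beside 15.2%, 12.7% and 12.4% of all cells without Rrm2. All 5 remaining genes were lower in the Rrm2b cells, where 13.2% of 7293 genes were called lower, with a median log2 difference of −1.84 beside 0.02 over all genes. Tyms, the gene with the largest difference, stood at 0.256, 0.288 and 0.302 in Rrm2b cells and 1.62, 1.46 and 2.24 in Rrm2 cells, a log2 difference of −2.69 (SE 0.167). Tk1 stood at 0.499, 0.575 and 0.334 against 1.82, 1.96 and 2.80. Even Dut, the smallest, differed by −1.42 (SE 0.0801), with no overlap between groups.

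Each of the 5 genes kept its call in all 17 alternative settings. All of these settings split the cells by Rrm2, so the calls again do not bear on Rrm2b alone. Before thinning, Rrm2 cells were deeper, with medians of 9401, 12468 and 13239.5 UMIs against 5521, 7583 and 7762. Myeloid markers summed to 0, 0.0240 and 20.7 per 10000 in Rrm2b cells and 0.00977, 20.5 and 0.120 in Rrm2 cells, so they lay on opposite sides in NP 2 and OVA 1.

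**Figure D3:**
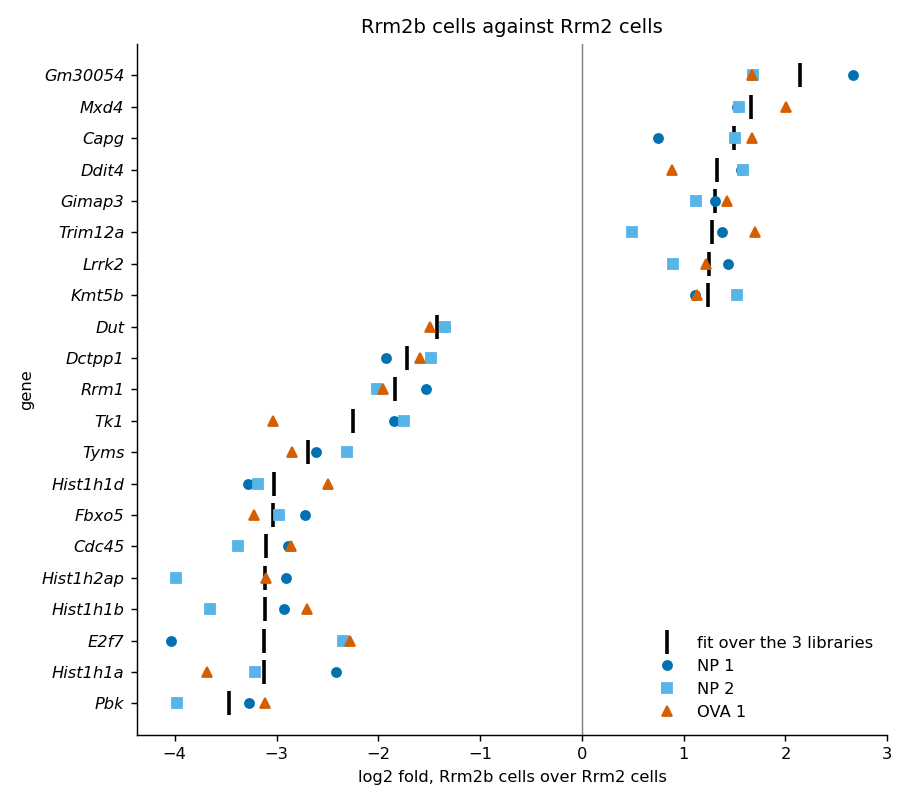
Log2 fold of Rrm2b cells over Rrm2 cells (horizontal axis) for the 5 remaining enzymes and the 8 genes with the largest called differences each way; points are NP 1, NP 2 and OVA 1 and the vertical tick is the fit over all 3. The 5 enzymes lie below 0 in every library. The 8 genes each way were chosen to have 1 direction in all libraries, so their agreement follows from that choice. Fitted values run from −3.46 for Pbk to 2.14 for Gm30054.

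Genes higher in Rrm2b cells were led by Gm30054 (2.14), Mxd4 (1.66, a MAX partner that opposes MYC), Capg (1.50, an actin-capping protein), Ddit4 (1.33, an inhibitor of mTORC1), Gimap3 (1.30), Trim12a (1.28), Lrrk2 (1.25) and Kmt5b (1.24). Higher in Rrm2 cells were Pbk (−3.46), the linker histones Hist1h1a (−3.12), Hist1h1b (−3.12) and Hist1h1d (−3.02), Hist1h2ap (−3.11), E2f7 (−3.12), Cdc45 (−3.10) and Fbxo5 (−3.04, the APC inhibitor Emi1). Histone genes form near-identical families, so counts may be divided among their members. Of 11 p53 pathway genes tested 4 were higher in Rrm2b cells, Bbc3 at 1.38, Sesn1 at 0.97, Btg2 at 0.91 and Trp53inp1 at 0.86. None was called lower, and 9.09% of all genes were called higher. Those that did not pass included Mdm2 (0.14), Ccng1 (0.01) and Ddb2 (−0.56). Bbc3, Sesn1 and Btg2 were also lower with Mcm5 and Top2a, where Rrm2 was highest. Whether they vary with Rrm2b apart from the cycle was not tested. Samhd1 was also higher, at 0.42. Of 20 S phase genes 19 were lower. Among 20 G2 and M phase genes 10 were lower, whereas Ccnb2 (0.47) and Cenpa (0.48) were higher.

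Myc marks the few germinal center cells that have just received help from T cells and are set to divide again. It was detected in 5.95%, 6.12% and 9.24% of thinned cells, 139, 98 and 199 cells. None of the 7 genes passed the test between these and the remaining cells, where 2.64% of 9210 genes passed in either direction. The lowest adjusted p was 0.386, for Rrm2b (edgeR's quasi-likelihood test with Benjamini-Hochberg adjustment); 2 genes, Rrm2 and Rrm2b, had an unadjusted p under 0.05, and DESeq2 also called 0. Rrm2 stood at 1.83, 1.86 and 1.39 with Myc and 1.55, 1.36 and 1.26 without, a log2 difference of 0.25 (SE 0.126), higher in 3 of 3 libraries. The share of no-marker cells was 40.3%, 39.8% and 49.7% with Myc and 42.6%, 46.3% and 52.9% without.

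Rrm2b had the only negative fold of the 7 in Myc cells. It stood at 0.436, 0.330 and 0.591 with Myc against 0.740, 0.552 and 0.612 without, from 15, 8 and 29 UMIs. NP 1 and NP 2 were lower and OVA 1 nearly equal, and the log2 difference was −0.42 (SE 0.208). With all UMIs of the same cells in place of thinned ones, Rrm2b (−0.52, adjusted p = 0.00353), Rrm2 (0.33, 0.00214) and Dctpp1 (0.39, 0.00255) passed the same test, in a fit with more counts and unequal depths. In 5 further random draws of the thinning Rrm2b lay between −0.70 and −0.05 and was never called. Within the no-marker bin Rrm2b stood at 0.289, 0.207 and 0.532 in Myc cells and 0.665, 0.506 and 0.491 in the rest.

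Elsewhere in the pathway Myc cells had higher Shmt1 (1.02), the purine enzyme Atic (0.59), Aprt (0.53) and Nme2 (0.38), and lower Dck (−0.59) and Samhd1 (−0.38). None of 14 E2F and RB regulators and none of 20 S phase genes passed. The abasic-site nuclease Apex1 was higher at 0.62. Memory and naive markers summed to 5.37, 4.09 and 8.33 per 10000 in Myc cells against 2.84, 3.29 and 5.22. T cell markers, Lck included, summed to 2.09, 2.81 and 1.81 against 1.19, 1.28 and 1.51. Myeloid markers were lower in Myc cells for all 7 genes tested, with sums of 0, 0.0413 and 0.244 against 0.375, 7.87 and 16.7. Their part in these values was not tested.

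**Figure D4:**
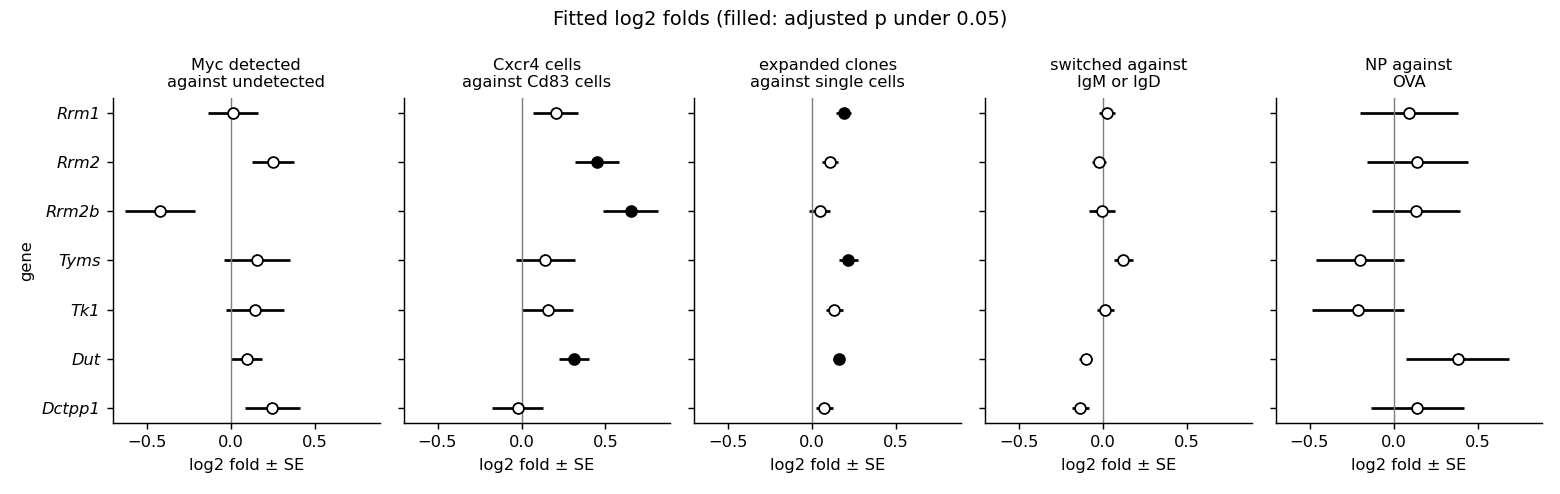
Fitted log2 fold (horizontal axis, bars 1 SE) of the 7 genes (vertical axis) in 5 comparisons over 3 libraries; filled points passed at an adjusted p of 0.05. Rrm2b lies at −0.42 in Myc cells and 0.65 in Cxcr4 cells, and no gene passes in Myc cells, by class switching or between NP and OVA.

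Dark zone cells carry the chemokine receptor Cxcr4 and light zone cells the activation marker Cd83. Cells with only Cxcr4 (409, 127 and 166) had higher Rrm2b, Rrm2 and Dut than cells with only Cd83 (874, 606 and 940), 3 of 7 genes where 4.98% of 8408 were called higher. Rrm2b stood at 0.909, 0.732 and 0.708 with Cxcr4 and 0.546, 0.488 and 0.448 with Cd83. It was higher in each library, by 0.65 on the log2 scale (SE 0.163, adjusted p = 0.00377, edgeR's quasi-likelihood test with Benjamini-Hochberg adjustment). Rrm2 passed at 0.45 and Dut at 0.31, but both were lower in NP 2, at −0.33 and −0.04.

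Several measured values moved with the zones. The Cxcr4 cells had fewer no-marker cells, 38.4%, 38.6% and 46.4% against 51.1%, 52.6% and 57.9%, and 16 of 20 G2 and M phase genes were higher in them. With cycle bin as a term only Rrm2b passed, at 0.51 (adjusted p = 0.0196). Myeloid cells also express Cxcr4, and their markers summed to 0.623, 41.7 and 68.3 per 10000 in Cxcr4 cells against 0.0278, 0.0134 and 0.341. With cells of other types left out Rrm2b was no longer called, at 0.48 (adjusted p = 0.0556, edgeR's quasi-likelihood test). The cells left out were chosen in part by Lck and may include many B cells. Rrm2b passed in 11 of 18 alternatives, and no member passed with DESeq2, without the library block, after thinning to 1500 UMIs or without NP 1 (Rrm2b then at 0.58). Without OVA 1 only Rrm2b passed.

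Clones were cells of 1 library with the same heavy-chain V gene, J gene and CDR3 nucleotides. Expanded clones, of at least 2 kept cells, held 773, 603 and 1035 cells, and 882, 812 and 836 cells were single. Rrm1, Tyms and Dut rose in expanded clones, 3 of 7 genes where 1.37% of 10451 were called higher, by small amounts in all 3 libraries. Rrm1 stood at 1.69, 1.53 and 1.51 against 1.54, 1.30 and 1.27, a log2 difference of 0.19 (SE 0.0442, adjusted p = 0.00746, edgeR's quasi-likelihood test with Benjamini-Hochberg adjustment). Dut stood at 4.90, 5.12 and 3.90 against 4.54, 4.53 and 3.28, and Tyms at 0.788, 0.753 and 0.865 against 0.704, 0.594 and 0.744. The groups' ranges overlapped for Rrm1 and Dut, whose calls rest on the comparison within each library, and not for Tyms.

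Rrm2 was higher in expanded clones of NP 2 and OVA 1 and lower in NP 1, at 0.11 (SE 0.0455, adjusted p = 0.239). Rrm2b stood at 0.656, 0.551 and 0.575 against 0.635, 0.530 and 0.540 and did not pass. Expanded clones held fewer no-marker cells, 35.6%, 40.2% and 46.6% against 45.2%, 45.9% and 59.7%. With cycle bin as a term no member passed, and Rrm1 then stood at 0.12, Dut at 0.06 and Tyms at −0.01. Memory and naive markers were lower, 1.90, 2.11 and 3.81 per 10000 against 3.04, 3.03 and 5.76, and with cells that had Klf2 or Ccr6 left out 2 members passed. Dut was called whichever library was left out, but Rrm1 was not called without NP 2 (0.18), nor Tyms without any 1 of the 3 (0.17 to 0.24). Of 20 S phase genes 3 were higher and of 20 G2 and M phase genes 11, led by Kif20a (0.36) and Birc5 (0.34).

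**Figure D5:**
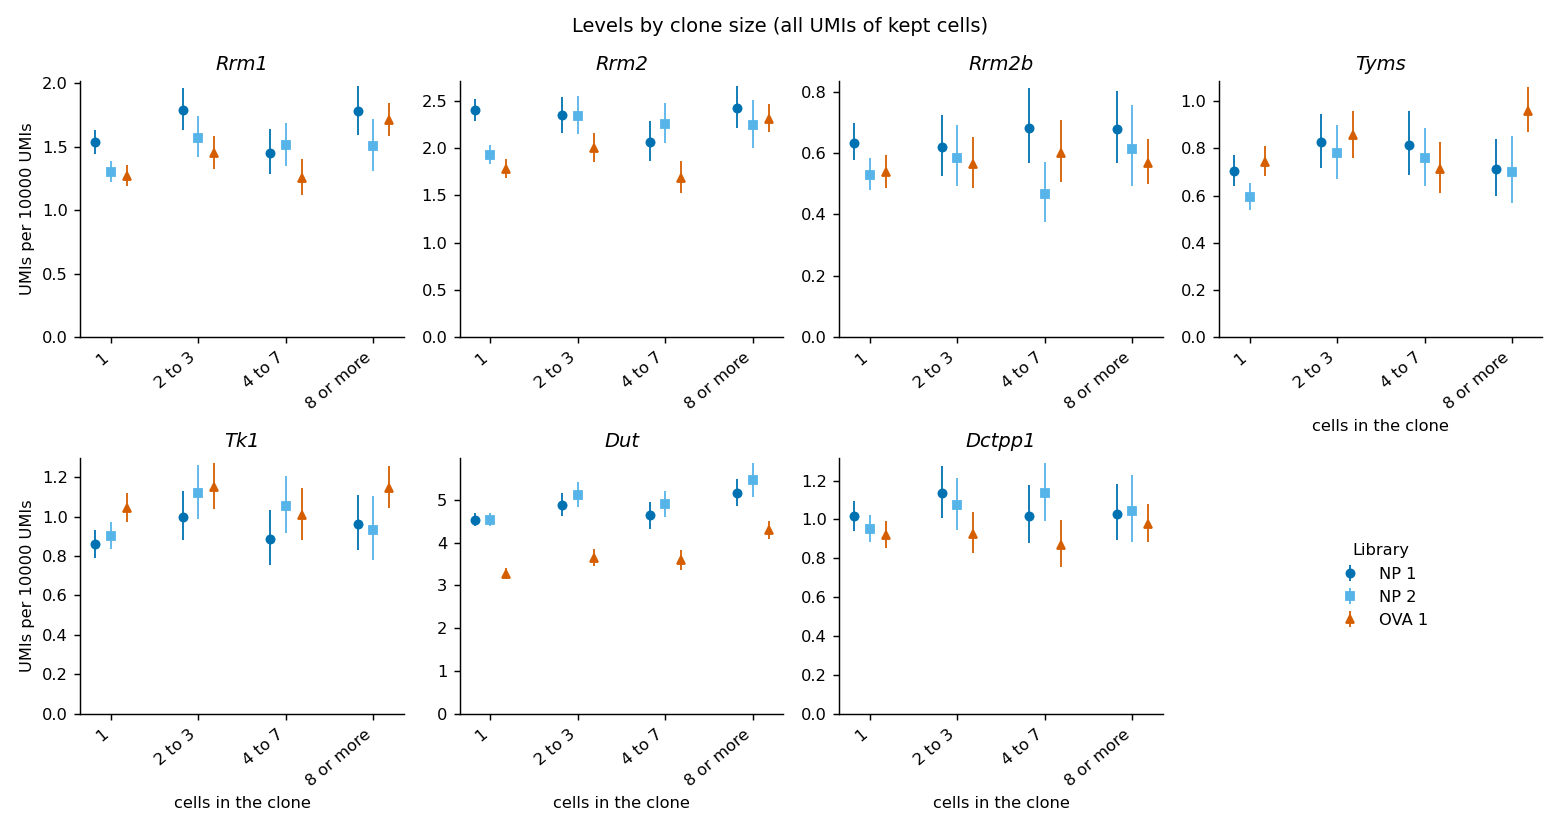
Level of each gene (vertical axis, UMIs per 10000 non-immunoglobulin UMIs of all kept cells) by number of cells in the clone (horizontal axis) for NP 1, NP 2 and OVA 1; bars are exact 95% Poisson intervals. Dut is higher in clones of 8 or more cells (5.16, 5.45 and 4.29) than in single cells (4.54, 4.53 and 3.28) in each library, and Rrm2b stays between 0.466 and 0.682 in every size class.

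By clone size the order was not steady. In OVA 1 Rrm1 stood at 1.27 in single cells, 1.45 in clones of 2 to 3 cells, 1.26 in clones of 4 to 7 and 1.71 in clones of 8 or more. Rrm2 in the same classes stood at 1.78, 2.004, 1.69 and 2.31. The largest clones were the highest class in OVA 1 for both genes, but the clones of 2 to 3 cells were the highest for Rrm1 in NP 1 (1.79, beside 1.78 in the largest clones) and in NP 2 (1.57). Cells of 1 clone share a founder and a library, so these classes were not tested as separate samples.

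None of the 7 genes was called by class switching (with 4.90% of 10500 genes called in either direction), between 905, 806 and 900 switched cells and 740, 608 and 969 cells with IgM or IgD. The median log2 difference was −0.00 (beside −0.00 over all genes). Dut had the lowest adjusted p, at −0.10 (SE 0.0372, adjusted p = 0.152, edgeR's quasi-likelihood test with Benjamini-Hochberg adjustment), lower in 3 of 3 libraries. At an unadjusted p under 0.05 there were 3, Tyms, Dut and Dctpp1, and DESeq2 called 0. Dut passed at −0.15 (adjusted p = 0.0165) when cells with Klf2 or Ccr6 were left out. Rrm2 and Rrm2b differed by −0.02 (SE 0.0417) and −0.00 (SE 0.0760).

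Single isotypes varied more. Of the classes given here, IgG2c had the highest Rrm2 in each library and IgM stood above IgG3, while the place of IgG1 changed. Rrm2 in IgG1 cells was 2.35 in NP 1, 1.42 in NP 2 and 1.48 in OVA 1, and in IgG2c cells 2.49, 2.43 and 2.82. In IgM cells it was 2.35, 2.07 and 2.002. IgG3 cells of OVA 1 stood lowest of the IgM and IgG classes, at 0.685, from 25 UMIs in 45 cells, while IgG3 cells of NP 1 and NP 2 had 2.29 and 1.93. IgA, IgD and IgE were carried by 10 or fewer cells each in every library. These levels are a description over cells of 1 library each and were not tested.

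Between the NP libraries and the OVA library none of the 7 genes passed (2.02% of 11859 genes did, in either direction), none had an unadjusted p under 0.05, and DESeq2 called 0. The fit had 1 residual degree of freedom. Antigen, sort gate and library cannot be told apart, nor can sort day, which is not given for OVA 1. Over all kept cells Dut stood at 4.42 and 4.57 in NP 1 and NP 2 and 3.52 in OVA 1, a log2 difference of 0.38 (SE 0.306, adjusted p = 0.929, edgeR's quasi-likelihood test with Benjamini-Hochberg adjustment). Rrm1 stood at 1.50, 1.35 and 1.36, Rrm2 at 2.09, 1.96 and 1.87, and Rrm2b at 0.704, 0.540 and 0.575. The difference between NP 1 and NP 2 was larger than that between NP 2 and OVA 1 for Rrm1, Rrm2 and Rrm2b, and smaller for the other 4 genes.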

How the data were processed

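Single-cell RNA (3 libraries) and heavy-chain sequences of the same cells were analysed; the deposited matrix holds whole UMI counts per gene and cell. Per the submitters' processing notes the authors used Cell Ranger with the build mm10; the sources used here do not give further settings or the counting strand. The deposited contig annotations give UMI counts per chain. The 7 members and all lists were chosen with earlier results of these data known. Cells with at least 500 genes and at most 10% mitochondrial UMIs were kept; for bins, Myc, zones and the Rrm2b contrast each cell was thinned to 2500 UMIs (seed 7), while clone, isotype and NP against OVA used all UMIs. No doublet caller was run. UMIs summed per library and arm were tested, two-sided, with edgeR 4.0.16 (TMM, filterByExpr, quasi-likelihood) in R 4.3.3, with the library as the block, since both arms come from the same library; 225 immunoglobulin genes and the genes defining an arm were left out. P-values were adjusted by Benjamini-Hochberg over all genes tested. The model was tested on simulated data. Of true log2 changes of 0.5 it called 5.10% for Myc, 12.8% for switching and 7.11% for NP against OVA. Of true changes of 1 it called 50.5%, 89.8% and 71.8%. A gene not called in these comparisons is therefore not shown to be unchanged. Intervals are exact 95% Poisson (levels) or Clopper-Pearson and cover counting error only. Named genes were the 7 members, up to 4 called genes per list by size of fold, for Rrm2b against Rrm2 cells the 8 largest called each way with at least 100 UMIs and 1 direction in all libraries, and the 5 most correlated genes. Some genes of these lists are not reported here. Alternatives were DESeq2 1.42.0, other scaling, no low-count filter, no library block, stricter cells, other depths and draws, cycle bin as a term, other cell types left out and each library left out.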

Additional observations from a re-analysis of the deposited data

Results flagged for a closer look

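In 5 comparisons the OVA library and both NP libraries moved in opposite directions; none of these differences was tested, and most are close to 0. Rrm2b in the Mcm5 bin against the no-marker bin differed by 0.14 on the log2 scale in OVA 1 and by −0.15 and −0.57 in NP 1 and NP 2. In Myc cells Dut stood at −0.003 in OVA 1 against 0.15 and 0.18, and Rrm1 at 0.22 against −0.16 and −0.10. In switched cells Rrm1 stood at −0.073 in OVA 1 against 0.09 and 0.08, and Rrm2 at −0.092 against 0.02 and 0.02.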

How the results depend on the processing

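Of 1151 refits of a member's fold, which include those with no library block, 1045 kept their direction and side of the threshold. Another 40 lost and 7 gained a call and 59 changed sign, and the cause was not tested. All 17 alternatives in each cycle bin kept the calls of Rrm1, Rrm2, Tyms, Tk1, Dut and Dctpp1, and the difference in the Rrm2 to Rrm2b ratio kept its sign in all 25 refits. Thinning draws 2 to 6 were chosen after seeing the data. Members called in Cxcr4 against Cd83 cells (3) came to 0 with DESeq2, with no replicate block and at 1500 UMIs, 1 with cycle bin as a term and in each of draws 2 to 6, and 0 to 3 with 1 library left out. In expanded clones (3) they came to 1 with DESeq2, which gave an adjusted p for Dut and Rrm2 only, 1 with the stricter cell filter (1000 genes, 5% mitochondrial), 0 with no replicate block and with cycle bin as a term, and 1 to 3 with 1 library left out. They rose from 0 to 3 in Myc cells with all UMIs and to 1 in switched cells without Klf2 or Ccr6 cells. Folds near 0 changed sign as follows. Rrm2b came to 0.22 in the Mcm5 bin (draw 2), −0.29, −0.019, −0.26, −0.20 and −0.38 with Mcm5 and Top2a (1500 UMIs, all UMIs, draws 4 to 6), and −0.11, −0.072, −0.25, −0.31, −0.090 and −0.38 with Top2a (the same, draws 3 to 6). In Myc cells Rrm1 came to −0.04 (no filter), −0.0025 (no replicate block), −0.0249 (other types left out), −0.13 (cycle term), −0.0954 and −0.092 (draws 4, 5), Dut to −0.041 (cycle term), Tyms to −0.064 and −0.086 (draws 3, 4) and Tk1 to −0.23, −0.14 and −0.11 (draws 3 to 5). Between zones Dctpp1 came to 0.17 (other types left out) and 0.078 (draw 3), Rrm2 to −0.11, Dut to −0.041, Tyms to −0.41 and Tk1 to −0.19 (1500 UMIs), Rrm1 to −0.034, Tyms to −0.079 and Tk1 to −0.12 (cycle term), Tyms to −0.024 and −0.027 (draws 4, 5) and Tk1 to −0.059, −0.061, −0.42 and −0.29 (draws 3 to 6). In expanded clones Rrm2b came to −0.094 (thinned sums) and −0.14 and Tyms to −0.0056 (cycle term). By switching Rrm2b came to 0.0009 (RLE scaling), 0.038 (thinned sums) and 0.015 (cycle term), Rrm2 to 0.019 (stricter filter), 0.033 (other types left out), 0.10 (thinned sums) and 0.13 (cycle term), and Rrm1 to −0.019 and Tk1 to −0.038 (no Klf2 or Ccr6 cells). With 1 library left out Rrm2b spanned −0.022 to 0.31 in the Ccnb1 bin; in Myc cells Dctpp1 spanned −0.0061 to 0.41, Rrm1 −0.14 to 0.12 and Tk1 −0.22 to 0.40; between zones Dctpp1 spanned −0.050 to 0.01; by switching Rrm1 spanned −0.014 to 0.10, Rrm2b −0.12 to 0.14 and Rrm2 −0.046 to 0.038. Calls over all genes ranged from 292 with no replicate block to 3092 with all UMIs in the Mcm5 bin (1459 reported), 1153 to 4582 with Mcm5 and Top2a (2576), 404 to 2501 with Top2a (1159), 1180 to 4629 with Cdc20 (2483), 17 to 799 in Myc cells (243) and 137 to 1939 between zones (914) under the same settings. They ranged from 536 at 1500 UMIs to 3042 with all UMIs with Ccnb1 (1256), 394 with DESeq2 to 2855 with all UMIs for Rrm2b against Rrm2 cells (1625), 0 with no replicate block to 531 with no filter by clone (444) and 594 by switching (515), and 19 with no filter to 269 with the stricter cells between NP and OVA (240), where no library could be left out. Rrm2b rests on few UMIs per bin, so small differences in it are not detectable at this depth.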
